A study of Mus musculus with 12 samples.

Results

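The angiopoietin and Tie receptor genes are the ligands Angpt1 and Angpt2 and the receptors Tek (also called Tie2) and Tie1. They were taken as every probe other than a control whose gene name in the scanner files is one of these names, which gave 4 genes of the 37074 names on the array and 5 probes of 56605. All 4 genes passed the filter on dim probes. Gene expression was measured in stem cells sorted from the bone marrow of male mice by the LSK SLAM scheme (cells that lack lineage markers, carry Sca-1 and Kit and are gated on SLAM receptors). The POL5551 mice received this antagonist of the chemokine receptor CXCR4 by infusion for 2 weeks at 100 mg/kg per day. The G-CSF mice were injected with granulocyte colony-stimulating factor, a cytokine that moves stem cells from marrow to blood, at 100 ug/kg per dose given 12 h apart. The mice treated for 5 days got 9 doses and those treated for 2 days got 4. The mice they were set against were sham-operated, and the labels do not say whether the G-CSF mice had an operation. Each group had 3 mice, each mouse gave 1 single-colour Agilent array, so precision is set by the 3 arrays of a group.

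Tek is a receptor tyrosine kinase of endothelial cells and of stem cells. Angiopoietin-1, the product of Angpt1, is its activating ligand, and angiopoietin-2 is known mainly as a context-dependent ligand that can oppose it in vessels. Tie1 is a related receptor that binds no angiopoietin with high affinity by itself and modulates Tek. In the mouse marrow, angiopoietin-1 signalling through Tek is known for holding stem cells quiescent and attached to their niche, and Tek acts through PI3K, AKT and the FOXO factors.

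The sequences below are those of the probes, shown because a level on this array is the signal of 1 oligonucleotide and not of a whole transcript. The Tie1 probe is given whole and the others by their first 30 of 60 bases, as the scanner files list them, in lower case with no base singled out. Positions are those of the array design on mouse build mm9, and the strand is that of the target. Angpt1 is read at chr15:42256343-42256402 (minus), Tek at chr4:94540861-94540919 (plus) and Tie1 at chr4:118144132-118144191 (minus). Angpt2 is read at chr8:18690323-18690382 (minus) by a first probe and at chr8:18699153-18699460 (minus) by a second, whose 60 bases span 308 bases of genome. The Tie1 probe has 1 of 3 reading frames without a stop codon, the Angpt1 probe and the first Angpt2 probe have 0 of 3, and the scanner files do not say which exon or untranslated region a probe lies in.
Tie1: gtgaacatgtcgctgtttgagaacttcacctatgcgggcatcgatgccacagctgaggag
Tek: ctctaatgtgactgtatatactgctcggag
Angpt1: aatgccaacatgtgtgtagcaatttgatac
Angpt2, first probe: ccagctaactccagagtgaagaactctgtc
Angpt2, second probe: ttctaaagatatgggatttgaggagaatct

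A level here is the log2 of a probe's processed signal minus the array's 75th percentile, so 0 is the signal that 75% of probes fall below. Levels of different probes are not compared, except that Tek is set beside the off-tissue level defined below. The 75th percentile itself was highest on 5-day mouse 1, at 5579, and lowest on sham mouse 1, at 1638. The share of probes above background by the scanner program's criterion was 75.3% to 85.6%, with 0 saturated spots. Sham mouse 1 stood apart: its rank correlation with the other sham arrays was 0.783 and 0.787, while those 2 arrays had 0.936 between them. The median level of 1537 probes for genes of other tissues (olfactory, vomeronasal, taste and keratin-associated genes) ran from -5.17 to -4.11 in POL5551 mice, from -3.97 to -3.25 in 5-day mice and from -2.74 to -2.41 in 2-day mice. This off-tissue level was -1.61 on sham mouse 1 and -3.30 and -3.45 on the other sham arrays. All 3 arrays of the 2-day group lay on 1 slide that held no other group, so slide and 2-day group cannot be told apart. Differences of the receptors and of Angpt1 from sham are given below with and without sham mouse 1.

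Angpt1 was lower in stem cells of G-CSF-treated mice than of sham mice at both times, by 3.05-fold at 2 days and 2.49-fold at 5 days, but neither difference passed the test over all genes. Its level was 2.23, 2.69 and 2.37 in 2-day mice and 2.74, 2.88 and 2.55 in 5-day mice, against 4.52, 3.76 and 3.85 in sham mice. Every G-CSF-treated mouse lay below every sham mouse, and the 2 G-CSF groups overlapped each other. POL5551 mice lay between them, at 3.30, 3.63 and 3.56, above every G-CSF-treated mouse and below every sham mouse. The order of the group means was sham, POL5551, 5-day and 2-day, and of its neighbours only POL5551 and the 5-day group were apart by more than the 95% confidence interval of the difference, before adjustment.

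The difference of Angpt1 between 2-day and sham mice was -1.61 on the log2 scale (SE 0.30, 95% confidence interval -2.27 to -0.95, limma adjusted p = 0.164). It was the 43rd smallest p of the 33038 genes tested. The difference between 5-day and sham mice was -1.32 (SE 0.30, interval -1.98 to -0.66, adjusted p = 0.192). Among all genes, 5.36% had 2-day arrays all below the sham arrays and 8.18% had 5-day arrays all below them. Both comparisons use the same 3 sham arrays. The processed signals before scaling were 12804, 18363 and 14057 in 2-day mice and 37385, 25509 and 11777 in 5-day mice, against 37519, 38090 and 45795 in sham mice. Before scaling, 5-day mouse 1 was close to the lowest sham signal, and its array had the highest 75th percentile of the 12. Without sham mouse 1 the mean sham level was 3.81, the difference at 2 days was -1.37 (adjusted p = 0.0538) and that at 5 days -1.08 (adjusted p = 0.265).

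After POL5551, the difference of Angpt1 from sham mice was -0.55 (SE 0.30, interval -1.21 to 0.11, adjusted p = 0.193). The median difference over all genes in this comparison was -0.51, and 25.7% of genes had POL5551 arrays all below the sham arrays, so this pattern was common. The processed signals were 39594, 39767 and 38543 in POL5551 mice and 37519, 38090 and 45795 in sham mice, which overlap. Within the 2 slides that held both groups the difference was -1.22 on slide 1, which holds sham mouse 1, and -0.18 on slide 2. Over all slides and without sham mouse 1 it was -0.31 (adjusted p = 0.493).

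Angpt1 was higher after POL5551 than after 2 days of G-CSF, by 1.06 on the log2 scale or 2.08-fold (SE 0.30, adjusted p = 0.0282). In that comparison 30.1% of all genes passed the test, 5.85% in the higher direction, and the median difference over all genes was -0.64. The call did not hold on every set of arrays: the adjusted p was 0.0626 to 0.0750 without each of POL5551 mice 1, 2 and 3, 0.103 without 2-day mouse 1 and 0.0797 without 2-day mouse 3. With the off-tissue level as a covariate the difference was 1.59 (adjusted p = 0.488). Against 5-day mice the difference was 0.77 (SE 0.30, adjusted p = 0.411), and the groups did not overlap, as for 10.3% of all genes in that direction.

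**Figure D1:**
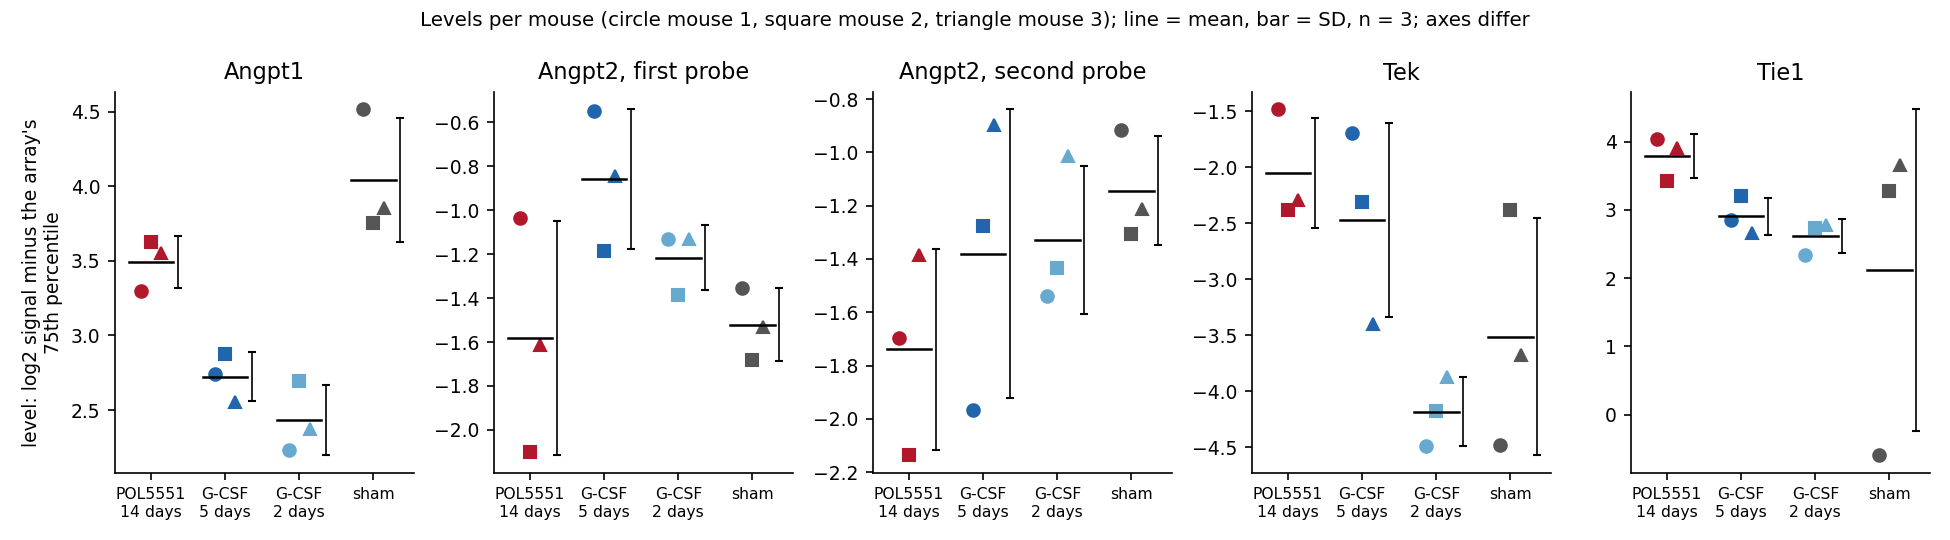
Levels of the 5 probes in each mouse (vertical axis, log2 signal minus the array's 75th percentile; the axes differ), with POL5551, 5-day G-CSF, 2-day G-CSF and sham mice from left to right. Lines are means and bars SDs over 3 mice. All 6 G-CSF points of Angpt1 lie below the 3 sham points, and the Tie1 point of sham mouse 1, at -0.60, lies apart from all others.

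Angpt2 was detected in every mouse and no comparison separated the groups past the test. The first probe had a level of -1.03, -2.10 and -1.61 in POL5551 mice, -0.55, -1.18 and -0.84 in 5-day mice, -1.13, -1.39 and -1.13 in 2-day mice, and -1.35, -1.68 and -1.53 in sham mice. The 5-day mice all lay above the sham mice, as did 4.43% of all genes in that comparison, and the other groups overlapped sham. The difference between 5-day and sham mice was 0.66 (SE 0.33, interval -0.06 to 1.39, adjusted p = 0.472). The order of its group means was 5-day, 2-day, sham and POL5551, and no neighbours differed beyond the interval of their difference. The second probe differed: its 5-day levels of -1.97, -1.28 and -0.90 overlapped the sham levels of -0.91, -1.31 and -1.21, with a difference of -0.24 (SE 0.36, adjusted p = 0.797). The 2 probes thus had 5-day differences of opposite sign. On the second probe the POL5551 levels, -1.70, -2.14 and -1.39, all lay below sham, with a difference of -0.59 (SE 0.36, adjusted p = 0.241), and on the first they overlapped it, with a difference of -0.06 (interval -0.78 to 0.66).

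Tek, the receptor of angiopoietin-1, was read near the lower end of its array's signals and was highest after POL5551. Its level was -1.48, -2.38 and -2.29 in POL5551 mice, -1.69, -2.31 and -3.40 in 5-day mice, -4.49, -4.18 and -3.88 in 2-day mice, and -4.49, -2.38 and -3.67 in sham mice. The POL5551 mice lay above all sham mice, as for 10.6% of all genes, though the gap is narrow where POL5551 mouse 2 (-2.3814) meets sham mouse 2 (-2.3828). The probe was well above background on 11 of 12 arrays and not on sham mouse 1, whose processed signal was 73.1. On the arrays of 2-day mice 1, 2 and 3 the processed signals were 121, 157 and 185. There the Tek levels lay below the off-tissue levels of the same arrays (-2.41, -2.74 and -2.60). Tek also lay below the off-tissue level on sham mice 1 and 3 and on 5-day mouse 3. It lay above that level on the other arrays, all POL5551 arrays among them. The order of the group means was POL5551, 5-day, sham and 2-day, and no pair of neighbours differed beyond the interval of their difference.

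Tek rose by 2.13 on the log2 scale, or 4.39-fold, in POL5551 mice over 2-day mice (SE 0.57, interval 0.89 to 3.38, adjusted p = 0.0234), where, as above, 5.85% of all genes passed higher. The call was lost without POL5551 mouse 1 (adjusted p = 0.0896) and without 2-day mouse 1 (0.0853), mouse 2 (0.0544) or mouse 3 (0.0580). Against sham the difference of POL5551 mice was 1.46 (SE 0.57, interval 0.22 to 2.71, adjusted p = 0.110). It was 2.03 with an adjusted p of 0.0478 without sham mouse 2 and 0.98 with an adjusted p of 0.350 without sham mouse 1. Within slides it was 3.00 on slide 1, with 1 mouse of each group, and 0.65 on slide 2. The sham array of slide 1 is that of sham mouse 1, where Tek was not well above background. The difference between 5-day and 2-day mice was 1.71 (SE 0.57, adjusted p = 0.255), with every 5-day mouse above every 2-day mouse, as for 11.8% of all genes. Without sham mouse 1 the difference of Tek from sham was 0.56 in 5-day mice (adjusted p = 0.856) and -1.15 in 2-day mice (adjusted p = 0.225). Between POL5551 and 5-day mice it was 0.42 (interval -0.82 to 1.66), and on slide 5, with 1 mouse of each, 0.02.

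Tie1, the second receptor, had signals in the range above the 75th percentile in every mouse but 1. Its level was 4.04, 3.43 and 3.91 in POL5551 mice, 2.85, 3.20 and 2.67 in 5-day mice, 2.34, 2.73 and 2.78 in 2-day mice, and -0.60, 3.28 and 3.66 in sham mice. Sham mouse 1 was the low array, with a processed signal of 1083 against 27422 and 40067 in the other sham mice. The sham SD was therefore 2.36, against 0.25 to 0.32 in the other groups, and this array raised the pooled spread of every Tie1 test. The SE of a Tie1 difference was 0.86. The order of the group means was POL5551, 5-day, 2-day and sham, no neighbours in it differed beyond the interval of their difference, and without sham mouse 1 the sham mean moved to second place.

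With sham mouse 1, Tie1 differed from sham by 1.68 in POL5551 mice (interval -0.22 to 3.57, adjusted p = 0.175), by 0.79 in 5-day mice (adjusted p = 0.715) and by 0.50 in 2-day mice (adjusted p = 0.924). Without it the mean sham level was 3.47, and the difference was 0.32 in POL5551 mice, -0.57 in 5-day mice (adjusted p = 0.680) and -0.86 in 2-day mice (adjusted p = 0.140). The G-CSF differences thus changed sign with this array, and no Tie1 difference from sham passed the test in either form. POL5551 mice all lay above the 2-day mice, as did 21.9% of all genes, with a difference of 1.17 (adjusted p = 0.276). Without sham mouse 1 the same difference had an adjusted p of 0.00877, where 52.3% of all genes passed in this comparison.

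Across the 4 genes, limma with adjustment over all genes called 0 of 4 in POL5551 against sham (2.29% of all genes were called), in 2-day against sham (0.0333%), in 5-day against sham (0.0666%), in 5-day against 2-day (0%) and in POL5551 against 5-day mice (0.0605%). In POL5551 against 2-day mice it called 2 of 4, Angpt1 and Tek, beside 30.1% of all genes. With no adjustment, p was under 0.05 for 1 gene in POL5551 against sham (Tek; 35% of all genes), 1 in 2-day against sham (Angpt1; 8.97%), 1 in 5-day against sham (Angpt1; 11.2%), 1 in 5-day against 2-day (Tek; 15.9%) and 2 in POL5551 against 5-day mice (Angpt1 and Angpt2; 11.6%). Angpt2 counts there by its first probe, with a difference of -0.72 (limma unadjusted p = 0.0498) and overlapping groups. On its second probe the difference was -0.36 (limma unadjusted p = 0.335). The F test over the 4 groups called none of the 4, beside 1.34% of all genes, with an adjusted p of 0.0530 for Angpt1, 0.0839 for Tek, 0.276 for Angpt2 and 0.411 for Tie1. Its unadjusted p was under 0.05 for Angpt1 and Tek, 2 of 4, beside 33.7% of all genes. Without sham mouse 1 the F test called 3 of 4, beside 22.6% of all genes, with an adjusted p of 0.0224 for Angpt1, 0.0434 for Tek and 0.0399 for Tie1.

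**Figure D2:**
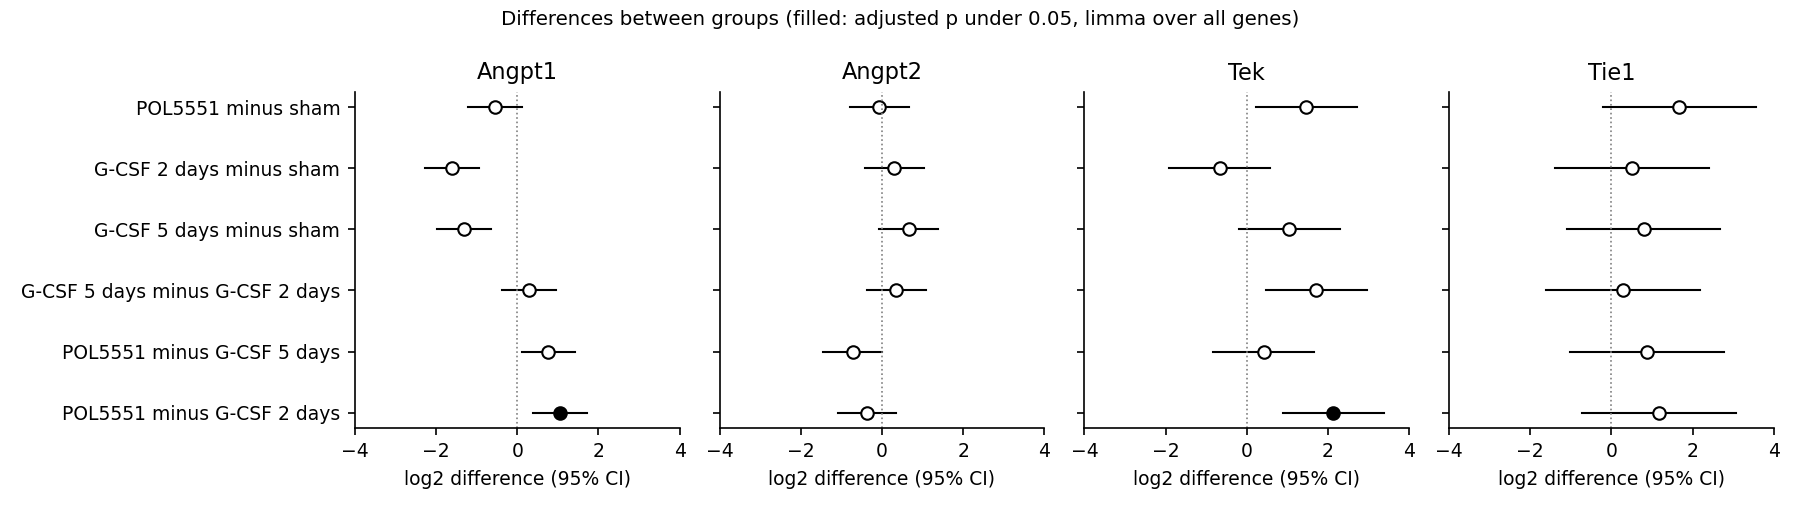
Log2 differences of each gene (horizontal axis, first-named group minus second) with 95% confidence intervals from limma over 3 arrays a group. Filled points passed the test over all genes: Angpt1 (1.06) and Tek (2.13) in POL5551 minus 2-day G-CSF.

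The receptor levels ran against the off-tissue level of the arrays. The 3 arrays with the lowest Tek levels, 2-day mouse 1, sham mouse 1 and 2-day mouse 2, were among the 4 arrays with the highest off-tissue level, and POL5551 mouse 1 had the highest Tek level and the lowest off-tissue level. Tie1 was lowest on sham mouse 1, where the off-tissue level was highest, and highest on POL5551 mouse 1. Angpt1 showed no such order when the sham arrays were included. It was highest on sham mouse 1 and lowest on 2-day mouse 1, the arrays with the 2 highest off-tissue levels. Among the treated groups alone, mean Angpt1 did run against the off-tissue level. It was 3.49 in POL5551 mice (off-tissue level -5.17 to -4.11), 2.72 in 5-day mice (-3.97 to -3.25) and 2.43 in 2-day mice (-2.74 to -2.41). The Angpt1 levels of the 5-day and 2-day mice overlapped. With the off-tissue level as a covariate, the difference of Tek between POL5551 and 2-day mice was 0.26 (adjusted p = 0.930) and that between POL5551 and sham mice -0.22 (adjusted p = 0.993). The same covariate left the difference of Angpt1 between 2-day and sham mice at -1.66 (adjusted p = 0.0683) and that between 5-day and sham mice at -1.08 (adjusted p = 0.353). The difference of Angpt1 between POL5551 and sham mice was -0.07 under it (adjusted p = 0.995). These covariate fits included sham mouse 1, whose off-tissue level was -1.61 against -3.30 and -3.45 on the other sham arrays. The off-tissue levels of POL5551 mice (-5.17 to -4.11) and 2-day mice (-2.74 to -2.41) did not overlap. For these 2 groups the fit therefore cannot tell group and off-tissue level apart. The off-tissue level itself differed between the groups, and its part in the Angpt1, Tek and Tie1 differences was not tested beyond this fit.

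**Figure D3:**
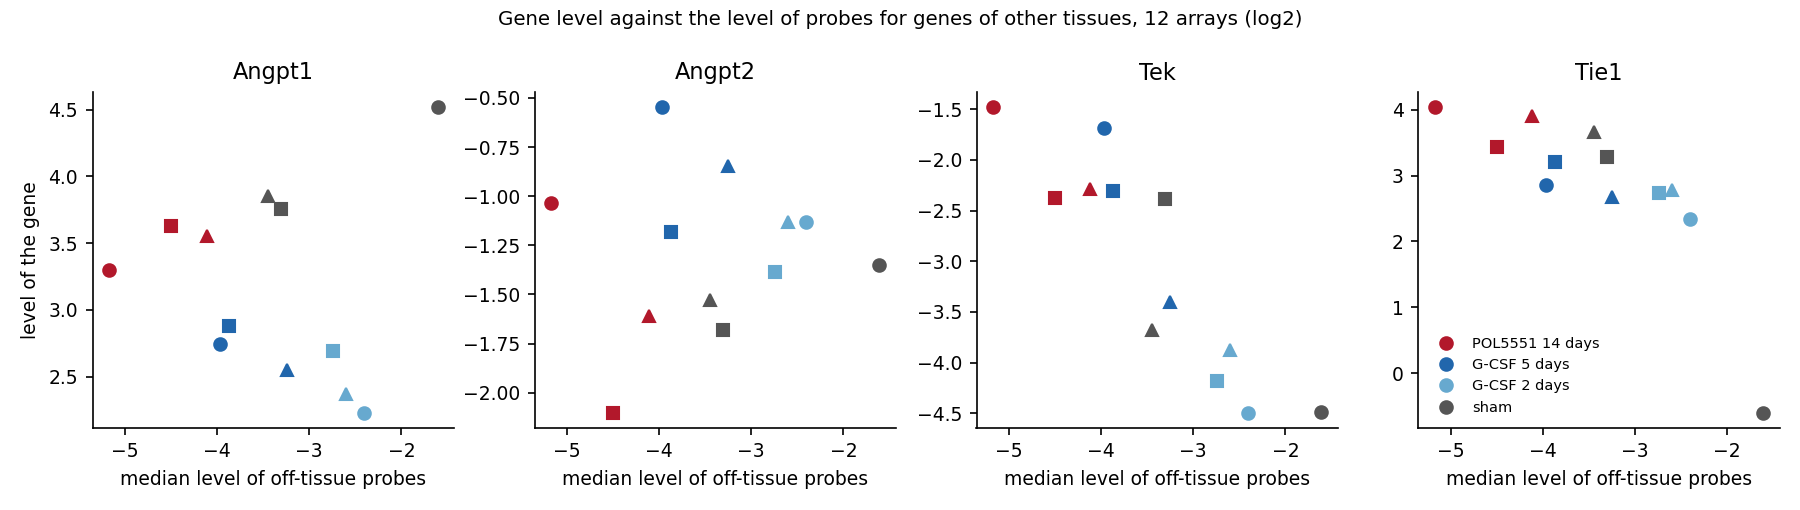
Level of each gene (vertical axis) against the median level of 1537 probes for genes of other tissues (horizontal axis), both log2 signal minus the array's 75th percentile, for the 12 arrays. Sham mouse 1 is the rightmost point, at -1.61. Tek and Tie1 levels are lower to the right, and the Angpt1 points are not ordered this way over all 12 arrays.

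The other genes of the pathway came from 6 lists of 91 genes, 89 of them tested. None passed in 2-day against sham, 5-day against sham, 5-day against 2-day or POL5551 against 5-day mice. In POL5551 against sham 1 gene rose and 0 fell. In POL5551 against 2-day mice 15 of 89 rose and 7 of 89 fell, where 5.85% of all genes rose and 24.2% fell, and the median difference of the 89 was 0.57 against -0.64 over all genes. The 22 calls rested on few arrays: without POL5551 mouse 1 or 2-day mouse 1 there were 0, without POL5551 mice 2 and 3 there were 11 and 14, and without 2-day mice 2 and 3 there were 10 and 5. There were 43 without sham mouse 1, beside 52.3% of all genes. Angpt1 and Tek are not in these lists. For the lists below, rose and fell give the direction in POL5551 against 2-day mice unless another comparison is named. Neither word assigns a difference to either treatment, and the 2-day group cannot be told apart from its slide.

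Of 12 ligands and related proteins tested, 1 rose and 3 fell in POL5551 over 2-day mice, near the shares of all genes given above. Vegfa, the main growth factor of endothelial cells, rose by 1.25 (SE 0.37, adjusted p = 0.0309), with a level of 0.85, 0.70 and 0.97 in POL5551 mice and -0.56, 0.00 and -0.66 in 2-day mice. Angpt4, a further angiopoietin, fell by 2.16 (adjusted p = 0.0235), at -1.14, -2.04 and -1.74 in POL5551 mice and 0.41, 0.92 and 0.22 in 2-day mice. Its sham levels of 1.39, -1.19 and -0.22 overlapped the 2-day levels, with the highest value in sham mouse 1. Angptl2 fell by 1.27 (adjusted p = 0.0433). Angptl7, which fell by 1.78 (adjusted p = 0.0445), was well above background on 1 POL5551 array and on 3 2-day arrays. Both are angiopoietin-like proteins, which do not bind Tek.

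Of the 9 tested receptor partners and phosphatases, 1 rose and 3 fell. Ptpn11, the phosphatase SHP2 recruited by receptor kinases, rose by 0.97 (adjusted p = 0.0491). The VEGF receptors Flt4 and Flt1 fell by 2.81 (adjusted p = 0.0237) and 1.95 (adjusted p = 0.0145), and the integrin chain Itgav fell by 1.98 (adjusted p = 0.0137). Flt4 was well above background on 1 of 3 POL5551 arrays. Ptprb, the phosphatase known for acting on Tek, did not pass the filter on dim probes.

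The signalling lists held more differences above 0 than below it, 13 of 19 for Tek adaptors and kinases and 12 of 15 for PI3K, AKT and FOXO genes, most of which did not pass. Of the 19 Tek adaptors and kinases, 2 rose and 1 fell: Dok2, a docking protein that binds activated Tek, rose by 2.46 (SE 0.47, adjusted p = 0.0137), Stat5b rose by 1.27 (adjusted p = 0.0493) and Grb14 fell by 1.56 (adjusted p = 0.0190). The Dok2 level was 1.96, 2.37 and 1.96 in POL5551 mice and -0.84, -0.14 and -0.12 in 2-day mice. Of 15 genes of PI3K, AKT and FOXO, 4 rose and 0 fell. Pik3r1, the regulatory subunit of PI3K, rose by 2.40 (SE 0.42, adjusted p = 0.0129), with a level of 2.43, 2.37 and 2.32 in POL5551 mice and 0.01, -0.12 and 0.01 in 2-day mice. Its sham levels were 0.79, 2.00 and 2.56, so those of sham mice 2 and 3 lay near the POL5551 mice and that of sham mouse 1 between the groups. Mtor, the kinase downstream of AKT, rose by 1.81 (adjusted p = 0.0161), and the transcription factor Foxo1 rose by 0.99 (adjusted p = 0.0463).

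Transcription factors known to act on these genes or on endothelial and stem cell programmes were tested as a list of 20. In POL5551 over 2-day mice 4 rose and 0 fell, 18 of 20 differences were above 0, and the median was 0.86. Epas1, a hypoxia factor, rose by 2.08 (SE 0.52, adjusted p = 0.0202), with levels of 1.26, 0.12 and 1.16 in POL5551 mice against -1.61, -1.76 and -0.34 in 2-day mice. Hif1a rose by 1.79 (adjusted p = 0.0168), the ETS factor Fli1 by 1.33 (adjusted p = 0.0243) and Mef2c by 1.24 (adjusted p = 0.0319). Gata1, a factor of megakaryocyte and erythroid cells, was the gene that rose in POL5551 over sham mice, by 1.69 (SE 0.36, adjusted p = 0.0434), at 1.85, 2.79 and 1.63 in POL5551 mice and 0.11, 0.67 and 0.41 in sham mice. The call rested on the arrays and the processing: 0 of 89 pathway genes passed in this comparison in 8 of the 12 fits that left out 1 array (sham mouse 1, POL5551 mice 1 and 2, 5-day mice 1 and 2, or any 2-day mouse), and 1 to 5 passed in the other 4. None passed with quantile normalization, normexp and quantile, the authors' deposited values, the off-tissue covariate or the replicate block either. Megakaryocyte markers, Gata1 among them, were read beside it: of 20 on the array 19 were well above background on each POL5551 array and 17 to 18 on each sham array. The log2 of their summed level was 5.54 to 5.61 in POL5551 mice, 4.62 in sham mouse 1 and 5.54 and 5.55 in sham mice 2 and 3. Of the 19 tested markers, 2 passed higher in POL5551 over sham mice, Gata1 among them, and 0 lower, beside 2.29% of all genes in either direction. Their differences were above 0 for 11 and below it for 8. The part of these markers in the Gata1 difference was not tested.

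Of 14 quiescence genes linked to Tek signalling, 3 rose in POL5551 over 2-day mice and 0 fell. Cdkn1c, the cyclin-dependent kinase inhibitor p57, rose by 1.92 (SE 0.41, adjusted p = 0.0151), with levels of 1.56, 1.60 and 1.47 in POL5551 mice, -0.29, -0.73 and -0.12 in 2-day mice and 0.43, 1.84 and 1.92 in sham mice. The 2-day levels of Cdkn1c lay below all its POL5551 and sham levels, and the POL5551 and sham levels overlapped. For Tek the 2-day mean was also the lowest, but its 2-day levels overlapped sham. Gfi1, a repressor that restrains stem cell cycling, rose by 1.44 (adjusted p = 0.0413) and Bmi1, a Polycomb protein of self-renewal, by 1.06 (adjusted p = 0.0367). A list of 18 stem cell markers moved with these genes: 17 differences were above 0 and none passed, and their median was 0.72 against -0.64 over all genes. All 18 were well above background on each array of both groups, and the log2 of their summed level was 6.59 to 6.81 in POL5551 mice and 5.95 to 6.26 in 2-day mice. Their part in the differences of the quiescence genes was not tested. With the off-tissue level as a covariate 0 of the 89 pathway genes passed in this comparison, and 0 of all genes.

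**Figure D4:**
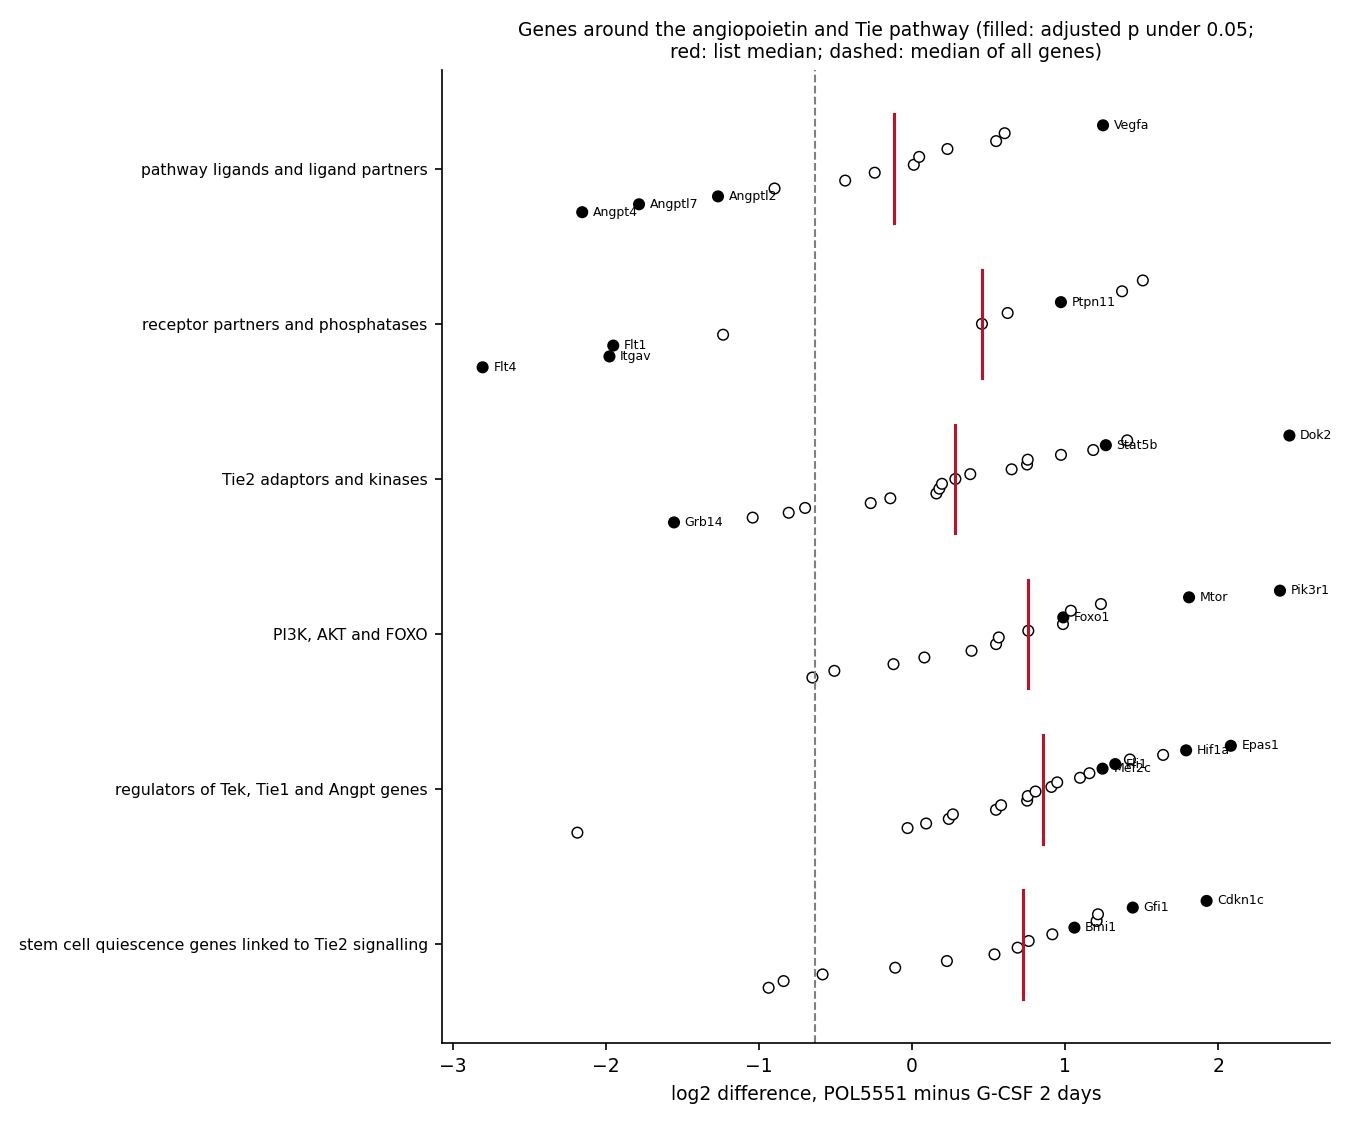
Log2 difference between POL5551 and 2-day G-CSF mice (horizontal axis) for 88 of the 89 tested pathway genes in 6 lists, 1 point a gene. Filled, named points passed the test over all genes (14 rose, 7 fell), red marks are medians of the full lists and the dashed line is the median of all genes, at -0.64.

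Tek and Tie1 are also endothelial genes, so the markers of marrow endothelium were read in the same arrays. Cdh5, the defining adhesion molecule of endothelium, was well above background on 3 of 12 arrays: 1 of 3 in POL5551 mice, 0 in 5-day mice, 2 in 2-day mice and 0 in sham mice. Of 30 endothelial markers on the array, 24 to 27 were well above background in POL5551 mice, 25 to 27 in 5-day mice, 26 to 27 in 2-day mice and 23 to 25 in sham mice. The log2 of their summed level was 5.43 to 5.54 in POL5551 mice, 5.10 to 5.34 in 5-day mice and 5.03 to 5.16 in 2-day mice. It was 4.39 in sham mouse 1 and 5.26 and 5.34 in sham mice 2 and 3. Of the 28 tested, 0 passed in POL5551 against sham, with 15 differences above 0 and 13 below, and 1 rose and 4 fell in POL5551 against 2-day mice, with 14 above 0 and 14 below. Several markers, such as Egfl7, Esam, Vwf and Eng, are also genes of stem cells. These bulk arrays cannot separate fewer cells of a type from less RNA per cell, and the part of endothelial cells in the Tek and Tie1 differences was not tested.

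The sort genes Kit, Ly6a (Sca-1), Slamf1 and Procr were measured beside them. Kit was level over the arrays, between 2.61 and 3.22. Slamf1, the SLAM receptor CD150, had -0.30, -1.27 and -0.34 in POL5551 mice, -0.63, -1.80 and -2.19 in 5-day mice, -2.07, -1.39 and -2.11 in 2-day mice, and -4.12, -0.96 and -1.41 in sham mice. Ly6a was -1.84 and Procr -0.08 on sham mouse 1, the lowest of the 12 arrays for each, so this array was low for 3 of the 4 sort genes as well as for Tie1 and Tek. None of the 4 passed the test in any of the 6 comparisons.

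The genes whose levels were most like those of each member over the 12 arrays were ranked by Pearson correlation among 21399 genes, as a description, since all points share the arrays and their scaling. For Angpt1 they were Msi2, an RNA-binding protein of stem cells, with r = 0.958, then Morf4l1, Zfp534, Rab12 and Supt20, down to 0.912. For Tek they were Mad2l1, a spindle checkpoint gene, with r = 0.961, then Angel2, Prkx, Clns1a and the sialomucin Cd164, down to 0.940. For Tie1 they were Slc48a1, with r = 0.992, then Pik3ip1, Parp6, Tspan4 and Rabac1, and without sham mouse 1 these 5 had r of 0.939 to 0.960. For Angpt2 they were Wnt4, with r = 0.930, then Dcx, Gfod1, Ccdc33 and Chil4, down to 0.882.

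**Figure D5:**
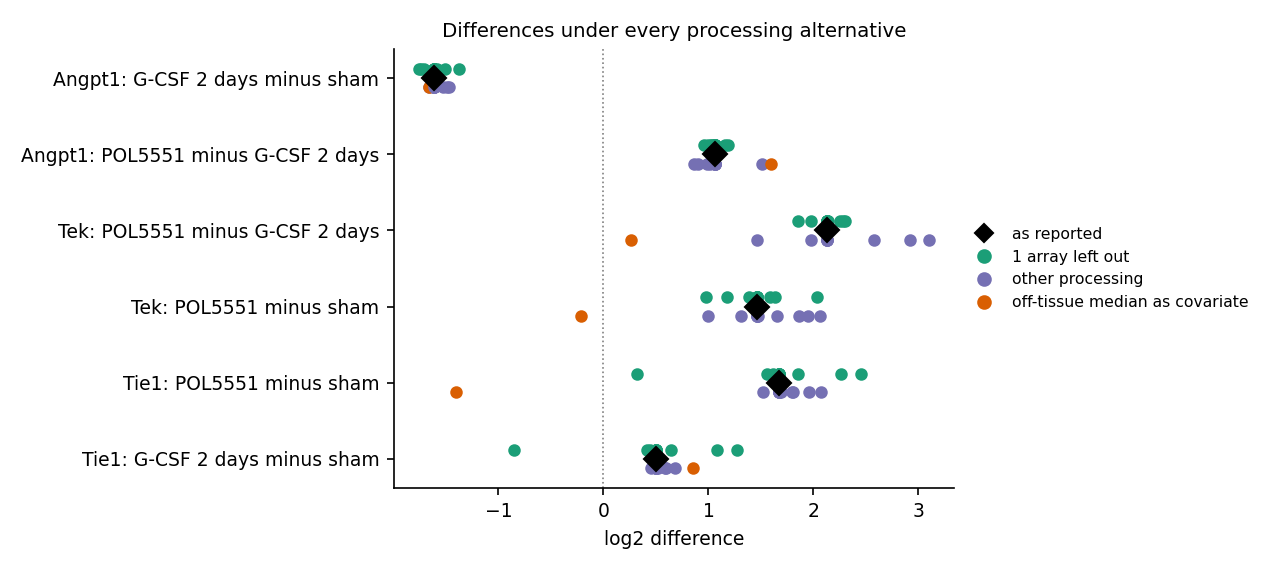
Log2 differences (horizontal axis) of 6 member and comparison pairs as reported (black diamonds), with 1 array left out (green), under other processing (purple) and with the off-tissue level as covariate (orange). Angpt1 in 2-day G-CSF minus sham stays between -1.75 and -1.37, while Tek in POL5551 minus sham is -0.22 under the covariate and Tie1 in 2-day G-CSF minus sham is -0.86 without sham mouse 1.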

How the data were processed

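Stem cells of 12 male mice were measured on single-colour (Cy5) Agilent arrays. The deposited scanner files give a linear intensity for each spot from Agilent Feature Extraction 11.5.1.1, per the submitters' processing notes. Per the file headers, background was already subtracted in the processed intensity used here. Outlier spots, 60 to 267 per array, were left out, repeated spots averaged, and 258 probes with a missing value dropped. Each array was scaled by the 75th percentile of its 56605 averaged probes. A probe was tested if well above background on at least 3 of 12 arrays. A gene was read by its tested probe with the highest mean, and every Angpt2 probe was also fitted by itself. Genes were named by RefSeq accession, then symbol or synonym.

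All 12 arrays were fitted by their group means in limma 3.58.1 (R 4.3.3), with 8 residual and 3.22 prior degrees of freedom. Tests were two-sided, with Benjamini and Hochberg's adjustment over 33038 genes and a threshold of 0.05. With 3 arrays on each side, the smallest p of an exact test is 0.1. The labels number separate mice and name no pairs. Deviations from the group means were correlated between arrays of the same number in different groups. Of 18 pairs, 7 correlated over 0.1, and the correlations ran from -0.31 to 0.25. This check cannot decide whether the mice were paired, because the numbers themselves are uncertain. In the authors' deposited table, whose values are linear intensities already normalized between arrays (median 1080 in every column), the columns of all 3 POL5551 mice and of 5-day mice 2 and 3 fit best to arrays of their own group that bear a different number. The numbers printed follow the scanner files, so any pairing by number is uncertain. Named genes were the 4 members, called pathway genes (up to 6 a list), the 5 genes most like each member, and the sort genes. Of the genes this rule names, 1 is not reported here. The members, lists and rule were chosen with earlier results of these data known. No genome was used, and coordinates are the array design's.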

Additional observations from a re-analysis of the deposited data

Results flagged for a closer look

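Tek was marked for a closer look because the 2 times of G-CSF lay on opposite sides of the sham mean: the 5-day mice all lay above it (-1.69, -2.31 and -3.40) and the 2-day mice all below it (-4.49, -4.18 and -3.88), with a sham mean of -3.51. Without sham mouse 1, where Tek was not well above background, the sham mean was -3.03, 5-day mouse 3 lay below it and the pattern did not hold. The difference between 5-day and 2-day mice was 1.71 on the log2 scale (limma adjusted p = 0.255), so it did not pass the test, and it was 0.68 with the off-tissue level as covariate.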

How the results depend on the processing

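Other settings were 5 scalings or background corrections, including the authors' deposited value table, 2 filters, the mean of a gene's probes, the slide as a fixed or random block, the off-tissue level as covariate, a replicate block, and each array left out. The fixed slide block had 4 residual degrees of freedom and gave no value for the 2-day group. Each of the 6 Angpt1 differences kept its direction in every setting that gave it a value, but not always its size. The Angpt1 difference in POL5551 minus sham, -0.55 as reported, was -0.15 with median scaling and -0.07 with the off-tissue covariate. No difference of a member from sham passed except that of Tek without sham mouse 2. Members called in POL5551 against 2-day mice numbered 2, against 1 with the percentile over bright probes (Angpt1 lost, adjusted p = 0.0512), 1 with only probes well above background on all 12 arrays, where Tek was not tested, and 0 with the covariate. Over arrays left out they numbered 0 to 3, and 0 to 1 in POL5551 against sham. The F test called 0 members beside 1.34% of all genes, and 1 (Angpt1) with median scaling (0.611% of genes), with the all-array filter (14% of 25010) and with the mean of probes (1.76%). Over arrays left out it called 0 to 3, the highest without sham mouse 1 beside 22.6% of genes. Under the replicate block, which the uncertain numbers do not support, 2 members were called in POL5551 against 2-day mice and 0 elsewhere, with adjusted p = 0.0445 for Angpt1 and 0.0359 for Tek, and 8155 genes were called in place of 9939.

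Signs turned as follows, the cause not tested. Angpt2 in POL5551 minus sham was 0.24 with quantile normalization, 0.34 with median scaling, 0.26 with normexp and quantile, 0.257 with the authors' values, and -0.34 to 0.20 over arrays left out (0.02 without sham mouse 1 and 0.20 without POL5551 mouse 2), and in POL5551 minus 2-day it was 0.083 with median scaling. With the covariate Tek was -0.22 in POL5551 minus sham and -0.42 in POL5551 minus 5-day, and over arrays left out the last ran from -0.049 (without 5-day mouse 3) to 0.81. With the covariate Tie1 was -1.40 in POL5551 minus sham, -0.75 in 5-day minus sham, -1.61 in 5-day minus 2-day, -0.65 in POL5551 minus 5-day and -2.25 in POL5551 minus 2-day, and over arrays left out it ran from -0.86 to 1.27 in 2-day minus sham and from -0.57 to 1.56 in 5-day minus sham, the lowest in both without sham mouse 1. The median difference over all genes in POL5551 minus 2-day was -0.64, -0.24 with quantile normalization and -0.19 with median scaling, and the share of calls that were higher was 19.4%, 30.6% and 49.8%. Pathway genes called in POL5551 minus 2-day numbered 22, against 13 with quantile normalization, 14 with the authors' values, 13 with the mean of probes, 32 with median scaling, 25 with the all-array filter and 0 with the covariate, and in POL5551 minus sham 1, against 0 to 5 over arrays left out. Genes called in POL5551 minus 2-day numbered 52 to 17289 over arrays left out. Tek lay near background on sham mouse 1, which limits its sham mean, and below the off-tissue level on every 2-day array, which limits its differences from the 2-day mice.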
